A study of Mus musculus with 10 samples.

Results

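The transcriptional response of primary mouse hepatocytes to 90 minutes of 100 nM glucagon was described as it appeared in 3 adenoviral short hairpin arms together. All 10 libraries of the series entered, 6 from glucagon-treated and 4 from PBS-treated cells, chosen by the treatment in their titles. In the arm carrying a hairpin against Wdr5 (shWDR5), a subunit of histone H3 lysine 4 methyltransferase complexes, there were 2 glucagon libraries and 1 PBS library. The arm with a hairpin against Kat2b (shKAT2B), an acetyltransferase, also had 2 glucagon libraries and 1 PBS library. The arm with a non-specific hairpin (shNS) had 2 glucagon and 2 PBS libraries. Hepatocytes came from male C57BL6/J mice aged 10 weeks, and every group, controls included, had carried its adenovirus (2 to 4 pfu per cell) for 72 hours before hormone or PBS was added. Each library pooled RNA of 3 culture dishes. Libraries of a group are told apart by a letter, A or B, and no label ties them to separate animals, so the p-values cover only how far these libraries spread, which may be technical.

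Glucagon is the hormone of the fasted state. In hepatocytes it binds a Gs-coupled receptor, cAMP rises, and protein kinase A phosphorylates CREB and inactivates the salt-inducible kinases, which lets the CRTC coactivators enter the nucleus and bind CREB. Genes of glucose release, amino acid uptake and breakdown and several nuclear receptors are textbook targets of this route, and cAMP is also known to restrain the YAP pathway in many cells.

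Values are log2 of the deposited array intensity, an effect is given with its standard error, and where 4 PBS values follow each other they are libraries A and B of shNS, then shWDR5, then shKAT2B. The shared effect is the log2 fold change of glucagon over PBS in a limma model with the arm as a covariate, and a gene was called when its Benjamini-Hochberg adjusted p was below 0.05 over the 11481 genes tested. Of these, 106 were called (0.923%), 78 higher with glucagon (0.679%) and 28 lower (0.244%). The rise was the larger side of the response also in size: 26 called genes were higher by at least 1 on the log2 scale and 3 were lower by that much, with medians of 0.73 over the higher and -0.61 over the lower calls. The median over all genes tested was 0.015. An unadjusted limma p below 0.05 was met by 549 of the 11481 genes, a share just under the 0.05 that chance gives where no gene changes. A gene that was not called is therefore not shown to be unchanged. In each of the 106 genes, the glucagon libraries lay on 1 side of the PBS libraries of the same arm, without overlap, in all 3 arms. Such a separation was met in 325 of all genes tested in the higher direction (2.83%) and in 211 in the lower (1.84%).

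**Figure D1:**
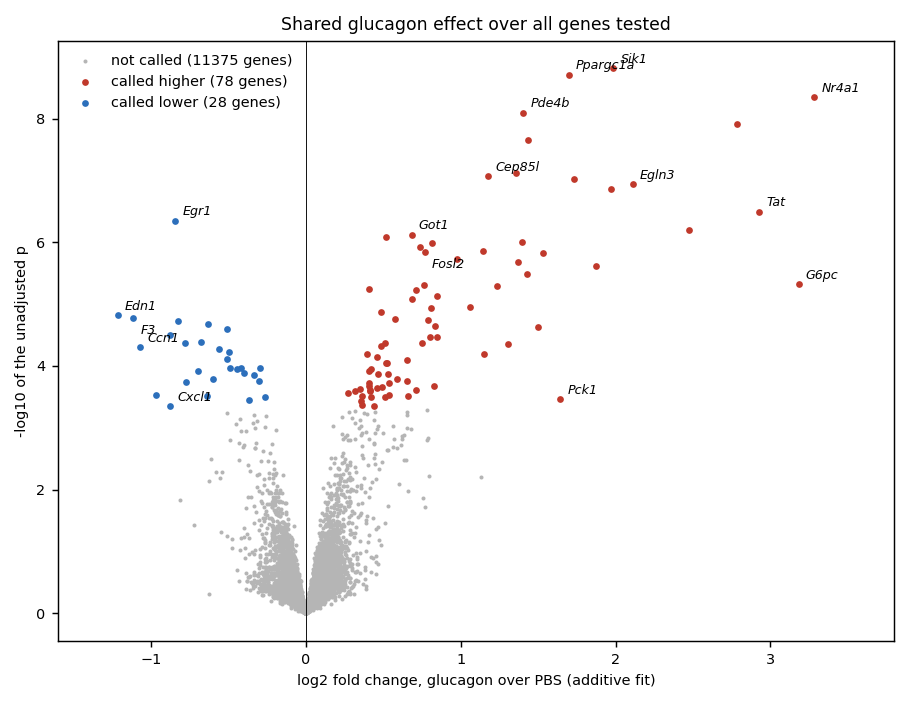
Each point is 1 of the 11481 genes tested, with the log2 fold change of glucagon over PBS on the x axis and the negative log10 of the unadjusted limma p on the y axis. Red points are the 78 genes called higher and blue points the 28 called lower, and the higher calls reach 3.28 on the x axis while the lower calls reach -1.21.

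The libraries of a group were not alike in everything. The first component of what the model left over held 78.0% of that residual variance and set 4 libraries (A of the shNS glucagon, shWDR5 glucagon, shKAT2B glucagon and shNS PBS groups) apart from the other 6. The 6 comprise 1 library of each group, so the 4 hold 3 of the 6 glucagon and 1 of the 4 PBS libraries. No label names this split. Since it was read from the same values, tests that use it are not independent of them and are given beside the shared effect. With it as a model term, 385 genes were called (3.35%), 221 higher (1.92%) and 164 lower (1.43%). They included all 106, each in the same direction. An unadjusted p below 0.05 was met by 1213 genes in that model, against 549 in the shared fit. The split moved with the markers of Kupffer cells and leukocytes, the liver's macrophages and other blood-derived cells: the mean level of 11 such genes was 8.76 to 9.08 in the 4 libraries and 9.34 to 9.77 in the 6. Set by treatment, it ranged from 8.76 to 9.77 with glucagon and from 8.80 to 9.68 with PBS, with none of the 11 called in either fit. Its part in the results was not tested. Other marker lists also shifted by arm in the model without the split. The median glucagon effects in shNS, shWDR5 and shKAT2B were 0.04, -0.27 and -0.23 over the Kupffer cell and leukocyte markers. They were 0.035, -0.2175 and -0.2875 over endothelial markers and 0.03, 0.235 and 0.245 over stellate markers. Whether the split is particular to any cell type was not tested. Fewer cells of a type and less RNA per cell cannot be told apart in such bulk samples.

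Hepatocyte markers checked the labelled cell type. Among 26913 features, Alb (albumin) stood at percentile 99.4 in both treatments and Trf (transferrin) at 99.74 with glucagon and 99.75 with PBS, while Cps1 (carbamoyl phosphate synthetase of the urea cycle) stood at 41.8 with glucagon and 33.6 with PBS. Array features differ in how strongly they bind, so these ranks set no order between the genes. Of the 7 hepatocyte markers tested, 0 were called in the shared fit and 2, Hnf4a and Cps1, were higher with the split as a term. Endothelial (10 tested), stellate (9) and cholangiocyte (3) markers had 0 calls in the shared fit, and with the split as a term the count was 1, Sox9, which was lower. Both hairpin targets fell in their own arm: Kat2b had 6.92 and 6.58 with glucagon and 6.60 with PBS in shKAT2B cells, against 9.40 to 9.59 in the other arms, and Wdr5 had 8.32 and 8.40 with glucagon and 8.19 with PBS in shWDR5 cells, against 9.98 to 10.07 elsewhere.

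The highest call was Nr4a1, and its relatives Nr4a3 and Nr4a2 were among the 5 highest. These orphan nuclear receptors are immediate early genes that in liver take part in the control of gluconeogenic genes. Nr4a1 had 11.69 and 11.73 in shNS, 11.76 and 11.57 in shWDR5 and 10.90 and 10.87 in shKAT2B with glucagon, against 8.12 and 8.07 in shNS, 8.20 in shWDR5 and 8.28 in shKAT2B with PBS. Nr4a3 had 9.19 and 9.16 in shNS, 8.99 and 8.99 in shWDR5 and 8.68 and 8.38 in shKAT2B with glucagon, against 6.44 and 5.93 in shNS, 6.02 in shWDR5 and 6.23 in shKAT2B with PBS. Nr4a2 had 10.79 and 11.15 in shNS, 10.79 and 11.28 in shWDR5 and 10.65 and 10.91 in shKAT2B with glucagon, against 7.75 and 8.15 in shNS, 8.88 in shWDR5 and 8.81 in shKAT2B with PBS. In all 3 genes the lowest glucagon library was above the highest PBS library of any arm. The shared effects were 3.28 ± 0.15 for Nr4a1 (adjusted p = 1.71e-05), 2.79 ± 0.15 for Nr4a3 (adjusted p = 2.81e-05) and 2.47 ± 0.20 for Nr4a2 (adjusted p = 0.000525). On the linear scale Nr4a1 was 9.74-fold higher.

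The start-proximal promoters of these receptors are printed because each carries 4 copies of the 5-base core of the cAMP response element, TGACG or its reverse complement CGTCA, in the window of 250 bases before to 50 after a RefSeq start (GRCm38.p6). Of 11763 such windows of tested genes, 62 (0.527%) held at least 4 cores, a minimum chosen after the counts were seen. Each stretch below is written 5′ to 3′ on the gene's strand, ends before the start, and has the cores in capitals. Their positions are Nr4a1 at chr15:101266606-101266816 on the plus strand, Nr4a2 at chr2:57124104-57124208 on the minus strand and Nr4a3 at chr4:48045070-48045165 on the plus strand.
Nr4a1: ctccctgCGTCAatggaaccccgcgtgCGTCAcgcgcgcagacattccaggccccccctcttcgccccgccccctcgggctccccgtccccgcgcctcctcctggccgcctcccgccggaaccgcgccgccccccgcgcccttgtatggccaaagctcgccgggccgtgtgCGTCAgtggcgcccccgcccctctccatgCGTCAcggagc
Nr4a2: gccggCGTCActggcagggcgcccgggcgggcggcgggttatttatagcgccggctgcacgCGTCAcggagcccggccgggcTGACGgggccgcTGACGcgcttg
Nr4a3: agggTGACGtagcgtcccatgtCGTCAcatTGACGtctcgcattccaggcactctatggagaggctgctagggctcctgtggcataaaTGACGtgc
Among windows of called genes no others held more than 2 cores. At least 1 core was found in 31.5% of the 92 windows of higher genes and in 20.0% of the 20 windows of lower genes, against 30.9% of all windows. Counted by gene, the core was found in 40.9% of higher and 20.0% of lower genes, against 35.6% of all genes with a window. The full palindrome TGACGTCA was found in 1.09% of windows of higher genes and 0.0% of those of lower genes, against 2.94% of all. Among genes called with the split as a term, the core was in 31.0% of windows of higher genes and 26.3% of those of lower genes, and the palindrome in 2.51% and 5.26% of these windows in the same order. The only gene called in the shared fit with the palindrome in its window was Slc25a25, printed with it in capitals (Slc25a25 at chr2:32424192-32424236 on the minus strand).
Slc25a25: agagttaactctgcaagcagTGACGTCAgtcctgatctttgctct
Windows were found for 9237 of the genes tested and for 86 of the 106 called.

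Of 24 genes of gluconeogenesis and glucose release tested, 5 were called higher and 0 lower: G6pc, Pck1, Ppargc1a, Got1 and Slc25a25. Fbp1 and Ppp1r3g joined them with the split as a term. The median over the list was 0.08. For this list and those below, the shares over all genes tested were 0.679% higher and 0.244% lower. With the split as a term they were 1.92% and 1.43%. G6pc encodes the catalytic subunit of glucose-6-phosphatase, which frees glucose for export. G6pc had 9.11 and 9.99 in shNS, 7.86 and 9.35 in shWDR5 and 8.41 and 8.87 in shKAT2B with glucagon, against 6.07 and 5.56 in shNS, 5.85 in shWDR5 and 5.86 in shKAT2B with PBS. Its effect was 3.18 ± 0.33 (adjusted p = 0.00201), and its glucagon libraries spread over 2.13 log2 units without reaching the PBS libraries. Pck1 encodes cytosolic phosphoenolpyruvate carboxykinase. Pck1 had 9.13 and 9.50 in shNS, 7.51 and 9.06 in shWDR5 and 7.96 and 8.43 in shKAT2B with glucagon, against 7.07 and 7.35 in shNS, 6.92 in shWDR5 and 6.97 in shKAT2B with PBS. Its effect was 1.64 ± 0.30 (adjusted p = 0.0395), and its lowest glucagon value, in shWDR5, was close to the highest PBS value, in shNS. The Pck1 call was lost without any 1 of 8 libraries, at most to an adjusted p of 0.174 without the shWDR5 PBS library. Its effect with the split as a term was 1.85 ± 0.16 (adjusted p = 1.21e-05).

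Ppargc1a, the coactivator PGC-1 alpha that drives gluconeogenic and mitochondrial genes, had glucagon values within 0.62 of each other, against 2.13 for G6pc and 1.99 for Pck1, while its PBS values spanned 0.69, against 0.51 for G6pc and 0.43 for Pck1. Ppargc1a had 10.78 and 10.77 in shNS, 10.97 and 10.95 in shWDR5 and 10.51 and 10.35 in shKAT2B with glucagon, against 9.02 and 8.85 in shNS, 9.45 in shWDR5 and 8.76 in shKAT2B with PBS. Its effect was 1.70 ± 0.07 (adjusted p = 1.11e-05), and a second array feature of the gene gave 1.67 ± 0.10. Slc25a25, which carries ATP-Mg and phosphate across the inner mitochondrial membrane, was at 9.13 to 9.85 (median 9.27) in the glucagon libraries and 8.39, 8.41, 8.35 and 8.19 in the PBS libraries, an effect of 1.14 ± 0.10 (adjusted p = 0.000772). Got1, the cytosolic aspartate aminotransferase, was at 12.71 to 12.87 (median 12.80) in the glucagon libraries and 11.93, 12.17, 12.13 and 12.17 in the PBS libraries, an effect of 0.68 ± 0.06 (adjusted p = 0.000575). All glucagon libraries of these genes lay above every PBS library.

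Few amino acid genes were called. Tat, which starts the breakdown of tyrosine, was the 1 called member among 30 genes for amino acid breakdown and urea formation. Tat had 11.04 and 11.64 in shNS, 10.80 and 11.40 in shWDR5 and 10.39 and 10.55 in shKAT2B with glucagon, against 8.47 and 7.73 in shNS, 8.78 in shWDR5 and 7.40 in shKAT2B with PBS. Its effect was 2.93 ± 0.22 (adjusted p = 0.000308), or 7.61-fold. The model with the split as a term called 8 members, all higher: Tat, Aldh4a1, Cbs, Cdo1, Aass, Cps1, Slc25a15 and Gnmt. Of 23 amino acid carriers 2 were called. Slc7a2 carries arginine, lysine and ornithine. Slc7a2 had 11.64 and 11.66 in shNS, 11.93 and 11.93 in shWDR5 and 11.39 and 11.49 in shKAT2B with glucagon, against 9.55 and 9.55 in shNS, 10.53 in shWDR5 and 9.93 in shKAT2B with PBS. Its effect was 1.73 ± 0.11 (adjusted p = 0.000121), and its PBS level was higher in shWDR5 than in the shNS libraries by 0.98 on the log2 scale. Slc38a4, a sodium-coupled neutral amino acid carrier, was at 12.65 to 12.92 (median 12.80) in the glucagon libraries and 12.50, 12.45, 12.61 and 12.52 in the PBS libraries, an effect of 0.27 ± 0.05 (adjusted p = 0.0348). That call was lost without any 1 of 9 libraries, at most to 0.199 without the shWDR5 PBS library. Ppm1k, the mitochondrial phosphatase that activates branched-chain keto acid breakdown, was in no list. It was at 8.21 to 9.39 (median 8.87) in the glucagon libraries and 7.94, 7.52, 7.59 and 6.95 in the PBS libraries, an effect of 1.43 ± 0.14 (adjusted p = 0.00144).

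Of 32 genes of the cAMP signal and its feedback tested, 6 were called higher and 0 lower, and those named here limit the signal or act beside it. Sik1 encodes the inducible salt-inducible kinase, which holds CRTC coactivators in the cytoplasm. Sik1 had 11.92 and 11.88 in shNS, 11.65 and 11.70 in shWDR5 and 11.43 and 11.45 in shKAT2B with glucagon, against 9.75 and 9.60 in shNS, 9.87 in shWDR5 and 9.63 in shKAT2B with PBS. Its effect was 1.99 ± 0.08 (adjusted p = 1.11e-05). The phosphodiesterase Pde4b, which degrades cAMP, was at 8.98 to 9.27 (median 9.20) in the glucagon libraries and 7.65, 7.82, 7.82 and 7.72 in the PBS libraries, an effect of 1.41 ± 0.07 (adjusted p = 2.30e-05). Its relatives Pde4d and Pde10a were also called, at 0.79 ± 0.10 and 0.35 ± 0.06. The Pde10a call was lost without any 1 of 9 libraries, at most to 0.2 without the shKAT2B PBS library. Rgs2, a GTPase-activating protein for G protein alpha subunits, was at 7.46 to 8.36 (median 8.15) in the glucagon libraries and 5.94, 6.02, 6.40 and 6.28 in the PBS libraries, an effect of 1.87 ± 0.18 (adjusted p = 0.00109). Rasgef1b, an exchange factor for Ras-family GTPases, was at 9.06 to 9.83 (median 9.54) in the glucagon libraries and 7.38, 7.33, 7.71 and 7.62 in the PBS libraries, an effect of 1.97 ± 0.14 (adjusted p = 0.000141). No glucagon library of Sik1, Pde4b, Rgs2 or Rasgef1b fell within the PBS range. The other 26 members were not called, and the list's median was 0.01. In the model with the split, 8 members were higher and 1 lower.

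**Figure D2:**
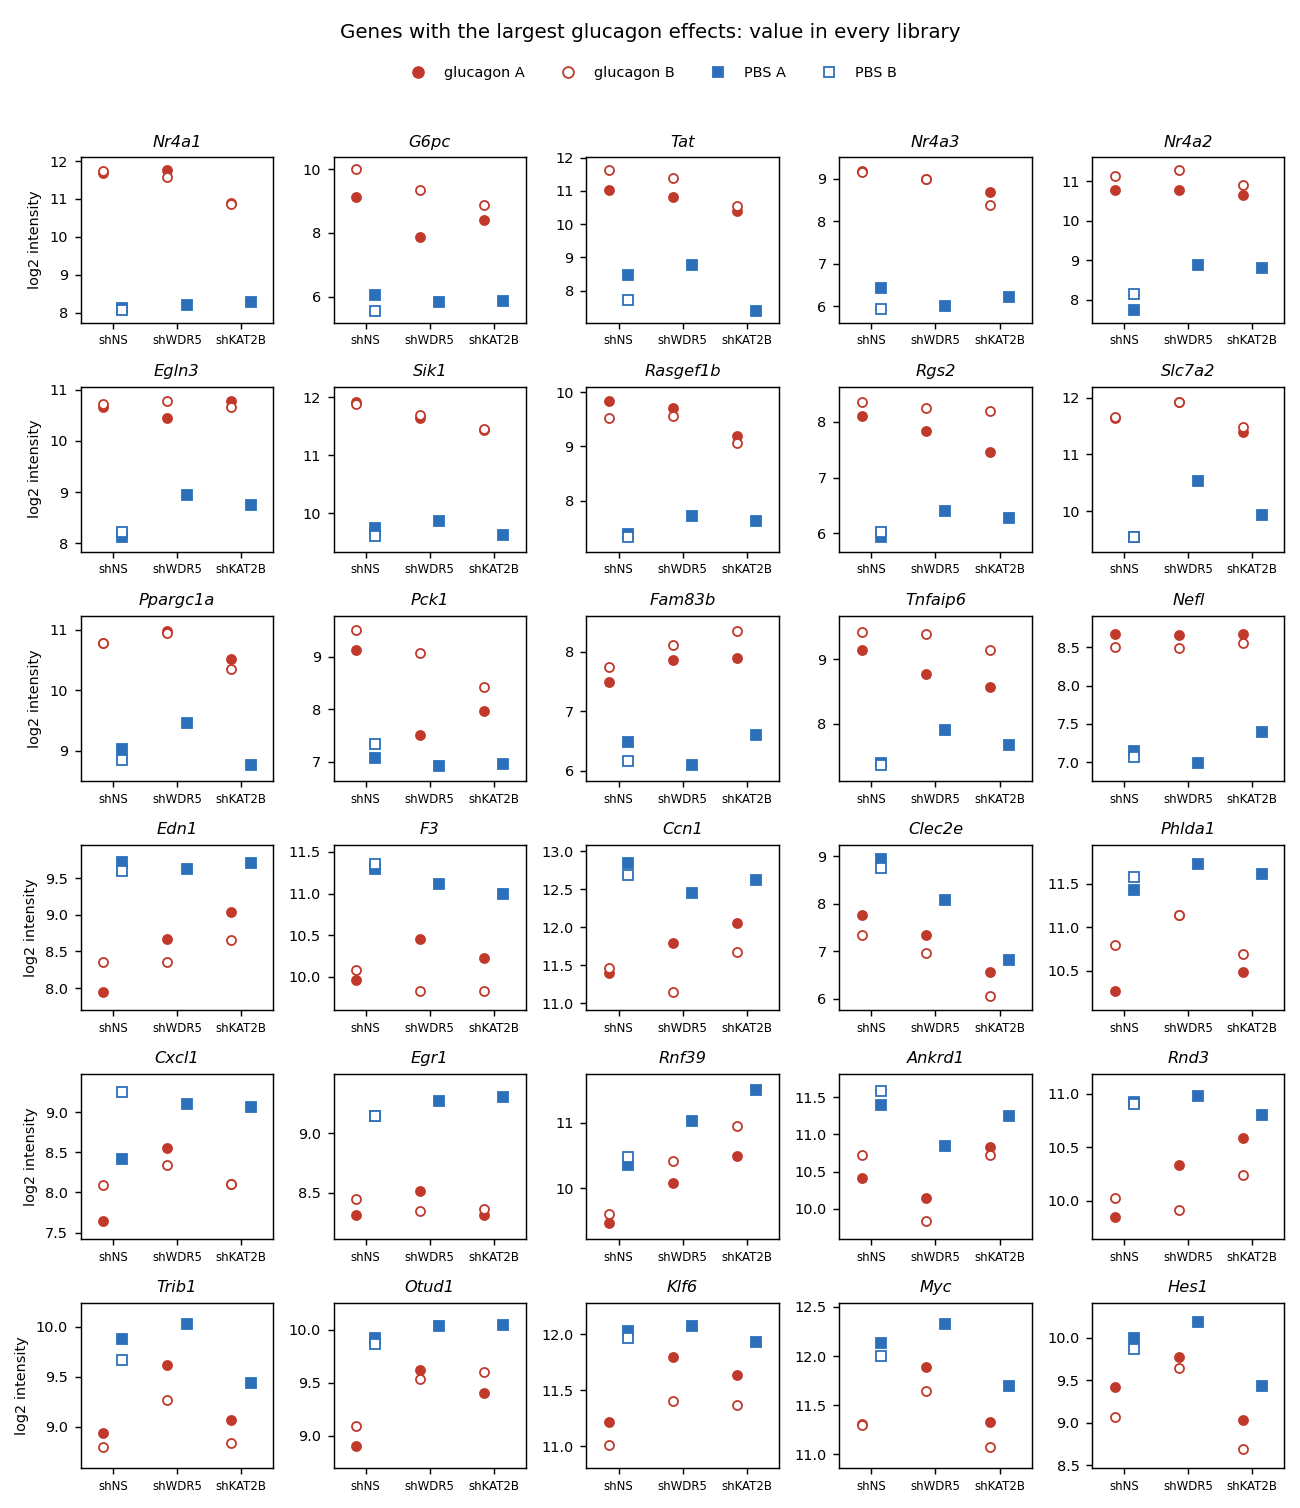
Log2 intensity in each of the 10 libraries for the 15 called genes with the highest and the 15 with the lowest log2 fold change, by hairpin arm, with glucagon (red circles) left of PBS (blue squares) and letters A and B filled and open. In every panel and every arm the glucagon libraries lie on 1 side of the PBS libraries. Sik1, for example, has 11.43 to 11.92 against 9.60 to 9.87. Such a separation was a condition of the choice, and all 106 called genes met it.

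Of 33 tested genes in the list of CREB targets and cAMP-responsive factors, 11 were called higher and 2 lower, with a median of 0.31, and 17 were higher and 5 lower with the split as a term. The list holds several of the genes above and was compiled with earlier results of these data known, so its direction is no independent evidence. Its members Egr1 and Klf6 fell and are given with the early response genes. Irs2, the insulin receptor substrate that carries insulin signalling in liver, was at 9.41 to 10.08 (median 9.81) in the glucagon libraries and 8.84, 8.27, 8.35 and 8.35 in the PBS libraries, an effect of 1.37 ± 0.13 (adjusted p = 0.000996). Its PBS value in library A of shNS stood above the other 3. Nfil3, a basic leucine zipper repressor of the clock output, was at 10.21 to 10.87 (median 10.64) in the glucagon libraries and 9.78, 9.60, 9.74 and 9.83 in the PBS libraries, an effect of 0.85 ± 0.11 (adjusted p = 0.00821). The Nfil3 call was lost without the shWDR5 PBS library (adjusted p = 0.0728). Nfil3 was the 1 called gene of 20 clock genes, of which 4 were higher and 1 lower with the split as a term. Crem, the cAMP response element modulator, rose by 0.65 ± 0.10 (adjusted p = 0.0149), a call lost without any 1 of 3 libraries, at most to 0.125 without the shWDR5 PBS library.

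In the list of insulin signalling and FOXO genes, 2 of 29 were higher and 1 was lower, and the pseudokinases of the Tribbles family were called in opposite directions. Trib2 was at 7.94 to 8.69 (median 8.11) in the glucagon libraries and 7.49, 7.37, 7.74 and 7.06 in the PBS libraries, an effect of 0.75 ± 0.10 (adjusted p = 0.00952). Trib1, which brings C/EBP alpha to the ubiquitin ligase COP1, was at 8.80 to 9.62 (median 9.01) in the glucagon libraries and 9.88, 9.67, 10.03 and 9.44 in the PBS libraries, an effect of -0.69 ± 0.11 (adjusted p = 0.0197). Both calls were lost without single libraries, Trib2 with 2 of them (at most 0.0807, without shKAT2B PBS) and Trib1 with 7 (at most 0.0962, without shWDR5 PBS). The model with the split gave Trib2 0.69 ± 0.07 (adjusted p = 4.17e-05) and Trib1 -0.77 ± 0.06 (adjusted p = 4.14e-06).

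Egln3, the oxygen sensor prolyl hydroxylase PHD3, was the highest called gene outside the nuclear receptors and the glucose and tyrosine enzymes. Egln3 had 10.66 and 10.72 in shNS, 10.44 and 10.78 in shWDR5 and 10.78 and 10.66 in shKAT2B with glucagon, against 8.12 and 8.23 in shNS, 8.95 in shWDR5 and 8.76 in shKAT2B with PBS. Its effect was 2.11 ± 0.14 (adjusted p = 0.000131), and its PBS level was lower in shNS than in the other arms while the glucagon levels met within 0.34. It was the 1 called gene among 23 genes of the hypoxia response, whose median was 0.06. Hilpda, a lipid droplet protein that inhibits triglyceride lipase and that hypoxia is also known to induce, stood outside that list. It was at 10.34 to 10.84 (median 10.63) in the glucagon libraries and 9.67, 9.61, 9.54 and 9.75 in the PBS libraries, an effect of 0.98 ± 0.09 (adjusted p = 0.000927).

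Receptors and regulators of the TGF-beta family were called higher in 3 of 28 cases and lower in 0. Tgfbr1, the type I receptor, was at 10.18 to 11.19 (median 10.92) in the glucagon libraries and 9.78, 9.54, 10.08 and 9.12 in the PBS libraries, an effect of 1.24 ± 0.13 (adjusted p = 0.00203). Id3, an inhibitor of basic helix-loop-helix factors, was at 9.89 to 10.53 (median 10.14) in the glucagon libraries and 8.93, 8.96, 8.79 and 8.88 in the PBS libraries, an effect of 1.36 ± 0.09 (adjusted p = 0.000121). Fst, the secreted activin antagonist follistatin, was at 11.40 to 12.12 (median 12.02) in the glucagon libraries and 11.71, 11.34, 11.77 and 11.02 in the PBS libraries, an effect of 0.41 ± 0.07 (adjusted p = 0.0324). Its glucagon and PBS values overlapped across arms and separated only within them. The Fst call was lost without any 1 of 8 libraries, at most to 0.175 without the shKAT2B PBS library. In the model with the split, 8 members were higher, Id2 among them, and 3 were lower, Id1 among them.

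Beyond the lists, 48 of the 78 higher genes and 8 of the 28 lower genes belonged to no list. Of the 543 list genes tested 30 were called higher and 20 lower. The 10 highest genes outside the lists had functions of several kinds. Gpcpd1, which splits glycerophosphocholine, was at 9.74 to 10.51 (median 10.06) in the glucagon libraries and 8.89, 8.66, 8.72 and 8.64 in the PBS libraries, an effect of 1.40 ± 0.12 (adjusted p = 0.000664). Etnppl, a phospho-lyase that degrades ethanolamine phosphate, was at 8.51 to 9.95 (median 9.17) in the glucagon libraries and 8.04, 8.09, 7.87 and 7.74 in the PBS libraries, an effect of 1.31 ± 0.18 (adjusted p = 0.00952). That call was lost without the shWDR5 PBS library (adjusted p = 0.0734). Gde1, a glycerophosphodiester phosphodiesterase named after its value was seen, rose by 0.84 ± 0.11 (adjusted p = 0.00603), a call lost without the same library (adjusted p = 0.0623).

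Of the others, Fam83b, known as a mediator of epidermal growth factor signalling, was at 7.50 to 8.35 (median 7.88) in the glucagon libraries and 6.49, 6.16, 6.09 and 6.60 in the PBS libraries, an effect of 1.53 ± 0.14 (adjusted p = 0.000772). Nefl, the light neurofilament subunit of neurons, was at 8.49 to 8.68 (median 8.61) in the glucagon libraries and 7.15, 7.07, 6.99 and 7.39 in the PBS libraries, an effect of 1.44 ± 0.08 (adjusted p = 4.29e-05). Its 6 glucagon values were within 0.19 of each other. Tnfaip6, a secreted hyaluronan-binding protein, was at 8.57 to 9.43 (median 9.15) in the glucagon libraries and 7.38, 7.36, 7.90 and 7.67 in the PBS libraries, an effect of 1.50 ± 0.19 (adjusted p = 0.00621). The secreted protease Adamts1 was at 10.36 to 10.92 (median 10.71) in the glucagon libraries and 9.86, 9.30, 9.70 and 9.62 in the PBS libraries, an effect of 1.06 ± 0.12 (adjusted p = 0.00376). Cep85l, a centrosomal protein, was at 9.53 to 9.85 (median 9.77) in the glucagon libraries and 8.53, 8.36, 8.72 and 8.53 in the PBS libraries, an effect of 1.18 ± 0.08 (adjusted p = 0.000121). Rab30, a small GTPase of the Golgi, was at 9.74 to 10.31 (median 10.07) in the glucagon libraries and 9.23, 8.82, 9.37 and 9.10 in the PBS libraries, an effect of 0.85 ± 0.09 (adjusted p = 0.00264). None of these calls was lost without any 1 library. Among further calls named after their values were seen were 3 mitochondrial or polyamine genes: the carrier Slc25a51 rose by 0.80 ± 0.11, ornithine decarboxylase Odc1 by 0.51 ± 0.07 and spermine oxidase Smox by 0.43 ± 0.08, with calls lost without any 1 of 2, 2 and 9 libraries. At most their adjusted p reached 0.0594 without the shWDR5 PBS library for Slc25a51, 0.081 without the shKAT2B PBS library for Odc1 and 0.244 without the shWDR5 PBS library for Smox.

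Among factors of inflammation and growth, the NF-kB regulators and the chemokine went different ways. Nfkbiz, the inducible nuclear I-kappa-B zeta, was at 9.96 to 10.37 (median 10.22) in the glucagon libraries and 9.56, 9.47, 9.24 and 9.43 in the PBS libraries, an effect of 0.77 ± 0.08 (adjusted p = 0.00203). Bcl3, a nuclear I-kappa-B relative, was at 10.60 to 11.35 (median 10.81) in the glucagon libraries and 10.45, 10.43, 10.12 and 10.14 in the PBS libraries, an effect of 0.69 ± 0.08 (adjusted p = 0.00286). Cxcl1, a neutrophil chemokine, was at 7.65 to 8.56 (median 8.11) in the glucagon libraries and 8.42, 9.25, 9.10 and 9.07 in the PBS libraries, an effect of -0.88 ± 0.16 (adjusted p = 0.0489). The Cxcl1 call was lost without any 1 of 9 libraries, at most to 0.283 without the shKAT2B PBS library. These were the 3 calls among 30 genes of that list, whose median was -0.09. The split model had 3 higher and 4 lower, Ccl2 among the lower. Fosl2, an AP-1 subunit, was at 10.23 to 10.73 (median 10.53) in the glucagon libraries and 10.05, 9.78, 9.71 and 9.55 in the PBS libraries, an effect of 0.77 ± 0.07 (adjusted p = 0.000772), the 1 higher call among 40 genes of serum response factor targets and the actin cytoskeleton.

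The lower calls included genes that growth factors, the YAP coactivator and serum response factor are known to induce. Of 31 YAP and TEAD targets tested, 4 were lower and 0 higher, and with the split as a term 9 were lower and 0 higher, while the list's medians of -0.03 and -0.05 lay near 0. This list and those below were chosen with earlier results of these data known, so their directions are no independent evidence. Edn1, the vasoconstrictor endothelin-1, had the largest fall of all calls. Edn1 had 7.94 and 8.35 in shNS, 8.67 and 8.35 in shWDR5 and 9.04 and 8.66 in shKAT2B with glucagon, against 9.72 and 9.60 in shNS, 9.62 in shWDR5 and 9.71 in shKAT2B with PBS. Its effect was -1.21 ± 0.15 (adjusted p = 0.00469), and all its glucagon values lay below 9.60, the lowest PBS value. F3, tissue factor, starts blood coagulation. F3 had 9.96 and 10.08 in shNS, 10.46 and 9.83 in shWDR5 and 10.23 and 9.83 in shKAT2B with glucagon, against 11.30 and 11.36 in shNS, 11.12 in shWDR5 and 10.99 in shKAT2B with PBS. Its effect was -1.11 ± 0.14 (adjusted p = 0.00503). Ccn1, a secreted matricellular protein, showed the same separation. Ccn1 had 11.40 and 11.46 in shNS, 11.80 and 11.15 in shWDR5 and 12.06 and 11.68 in shKAT2B with glucagon, against 12.85 and 12.69 in shNS, 12.45 in shWDR5 and 12.62 in shKAT2B with PBS. Its effect was -1.07 ± 0.15 (adjusted p = 0.0104), and without the shWDR5 PBS library its adjusted p was 0.0705. Ankrd1, a nuclear cofactor and standard readout of YAP, was at 9.83 to 10.83 (median 10.56) in the glucagon libraries and 11.40, 11.58, 10.85 and 11.25 in the PBS libraries, an effect of -0.78 ± 0.11 (adjusted p = 0.00952), and without the same library its adjusted p was 0.0864. Ccn2, another standard YAP target, had a shared effect of -0.55 ± 0.16 that was not called (adjusted p = 0.322), and with the split as a term -0.69 ± 0.04 (adjusted p = 5.72e-07).

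A stretch of the Ankrd1 promoter is shown because it holds the TEAD-binding letters GGAATG 2 times (Ankrd1 at chr19:36119955-36120059 on the minus strand), and one of the Rnd3 promoter because it holds a CArG box, the serum response factor motif (Rnd3 at chr2:51149187-51149231 on the minus strand). Motif letters are in capitals.
Ankrd1: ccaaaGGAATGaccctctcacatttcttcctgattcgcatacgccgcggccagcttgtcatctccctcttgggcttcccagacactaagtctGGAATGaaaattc
Rnd3: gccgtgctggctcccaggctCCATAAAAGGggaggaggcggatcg
On either strand, GGAATG was found in 25.0% of the 20 windows of lower genes and 15.2% of the 92 windows of higher genes, against 12.1% of all windows. Higher genes had 1.39 windows each and lower genes 1.0. Counted by gene, GGAATG was found in 25.0% of lower and 19.7% of higher genes, against 14.2% of all genes with a window. Its reverse complement also lies, in small letters, in the stretches of Nr4a1 and Nr4a3 printed above, and both genes were higher. A CArG box was found in 10.0% of windows of lower genes and 1.09% of those of higher genes, against 1.35% of all. The FOXO motif TGTTTAC was found in 10.0% of windows of lower genes and 1.09% of those of higher genes, against 2.6% of all. The shares of lower genes rest on 5, 2 and 2 windows. Among genes called with the split as a term, GGAATG was in 17.1% of windows of lower genes and 12.6% of those of higher genes. In those sets the CArG box was in 5.92% of windows of lower genes and 1.67% of those of higher genes, and the FOXO motif in 1.97% and 2.51%. Those sets include every gene called in the shared fit and come from the same libraries, so they are no separate check of any of these motifs.

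Rnd3 was at 9.85 to 10.59 (median 10.14) in the glucagon libraries and 10.92, 10.90, 10.98 and 10.80 in the PBS libraries, an effect of -0.77 ± 0.13 (adjusted p = 0.0263). Its call was lost without any 1 of 7 libraries, at most to 0.199 without the shWDR5 PBS library. It was 1 of 3 lower calls among the 40 serum response factor and actin genes, together with Egr1 and Ier2. Of the 40, 8 were lower and 2 higher with the split as a term.

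Of 39 early response and RNA decay factors tested, 8 were lower and 1, Id3, was higher, with a median of -0.11. The split model had 15 lower and 4 higher. Egr1, a zinc finger factor that growth signals induce within minutes, belongs to other lists. Egr1 had 8.31 and 8.45 in shNS, 8.51 and 8.35 in shWDR5 and 8.31 and 8.36 in shKAT2B with glucagon, against 9.14 and 9.14 in shNS, 9.27 in shWDR5 and 9.30 in shKAT2B with PBS. Its effect was -0.84 ± 0.07 (adjusted p = 0.000393), and its 6 glucagon values lay within 0.20 of each other. The Kruppel-like factors Klf6 and Klf5 had effects of -0.64 ± 0.11 (adjusted p = 0.0363) and -0.49 ± 0.08 (adjusted p = 0.0187). Hes1, a repressor downstream of Notch, was at 8.69 to 9.77 (median 9.25) in the glucagon libraries and 10.00, 9.87, 10.19 and 9.43 in the PBS libraries, an effect of -0.60 ± 0.10 (adjusted p = 0.0244). Gadd45a, a stress-induced growth arrest gene, was at 9.16 to 9.69 (median 9.38) in the glucagon libraries and 9.75, 9.69, 10.05 and 9.95 in the PBS libraries, an effect of -0.50 ± 0.06 (adjusted p = 0.00635). Ier2, a short-lived early response protein, was at 7.52 to 7.94 (median 7.66) in the glucagon libraries and 8.05, 8.16, 8.18 and 8.04 in the PBS libraries, an effect of -0.42 ± 0.06 (adjusted p = 0.0187). Of the 5, Klf6 lost its call without any 1 of 8 libraries, Hes1 of 7, Ier2 of 6, Klf5 of 4 and Gadd45a of 1 (shKAT2B PBS, 0.0705). The highest of these adjusted p-values were 0.1495 for Klf6 without library B of shNS PBS, and 0.138 for Hes1, 0.146 for Ier2 and 0.102 for Klf5 without the shKAT2B PBS library.

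In the list of MAPK feedback and growth factors 4 of 32 were lower and 1 higher. Myc, the growth-promoting transcription factor, fell in every arm. Myc had 11.31 and 11.30 in shNS, 11.89 and 11.64 in shWDR5 and 11.33 and 11.07 in shKAT2B with glucagon, against 12.13 and 12.00 in shNS, 12.33 in shWDR5 and 11.69 in shKAT2B with PBS. Its effect was -0.63 ± 0.08 (adjusted p = 0.00576), and the arms differed in level so that the shKAT2B PBS value lay among the glucagon values of shWDR5. Phlda1, a pleckstrin homology-like protein, was at 10.27 to 11.14 (median 10.74) in the glucagon libraries and 11.43, 11.58, 11.73 and 11.61 in the PBS libraries, an effect of -0.88 ± 0.12 (adjusted p = 0.00775). Lif, a cytokine of the interleukin-6 family, was at 8.19 to 8.96 (median 8.88) in the glucagon libraries and 8.96, 8.84, 9.27 and 9.59 in the PBS libraries, an effect of -0.56 ± 0.08 (adjusted p = 0.0109). Hbegf, a ligand of the epidermal growth factor receptor, was at 9.33 to 9.75 (median 9.46) in the glucagon libraries and 9.89, 9.86, 9.92 and 9.83 in the PBS libraries, an effect of -0.40 ± 0.06 (adjusted p = 0.0206). Without the shKAT2B PBS library the calls of Phlda1 (0.0737), Lif (0.102) and Hbegf (0.171) were lost, and Hbegf also lost its call without any 1 of 7 others. Efna1, the ephrin A1 ligand of Eph receptors, was the higher member. Efna1 had 11.46 and 11.29 in shNS, 10.95 and 11.02 in shWDR5 and 10.54 and 10.52 in shKAT2B with glucagon, against 9.76 and 9.67 in shNS, 9.97 in shWDR5 and 10.00 in shKAT2B with PBS. Its effect was 1.15 ± 0.17 (adjusted p = 0.0126), and without the shWDR5 PBS library its adjusted p was 0.0728. The split model had 8 of the list lower and 3 higher.

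The lower genes of no list were led by Clec2e, a C-type lectin. Clec2e had 7.76 and 7.34 in shNS, 7.35 and 6.97 in shWDR5 and 6.56 and 6.06 in shKAT2B with glucagon, against 8.95 and 8.75 in shNS, 8.07 in shWDR5 and 6.82 in shKAT2B with PBS. Its effect was -0.96 ± 0.17 (adjusted p = 0.0359), and its level also differed between arms, with the shKAT2B PBS value below every shNS value. Rnf39, a RING finger protein, was at 9.47 to 10.95 (median 10.24) in the glucagon libraries and 10.36, 10.48, 11.02 and 11.50 in the PBS libraries, an effect of -0.82 ± 0.10 (adjusted p = 0.00515), and here the arm levels ran the other way. Otud1, a deubiquitinase, was at 8.90 to 9.62 (median 9.47) in the glucagon libraries and 9.92, 9.87, 10.04 and 10.05 in the PBS libraries, an effect of -0.67 ± 0.09 (adjusted p = 0.00952). The remaining 5 were smaller. Map2k3os, an antisense transcript at the Map2k3 locus, had -0.51 ± 0.08 (adjusted p = 0.0148), the Wnt receptor Fzd5 -0.49 ± 0.07 (adjusted p = 0.0119) and the natriuretic peptide gene Nppb -0.44 ± 0.07 (adjusted p = 0.0189). The ubiquitin ligase Peli1 had -0.30 ± 0.05 (adjusted p = 0.0257) and the signalling adaptor Bcl10 -0.26 ± 0.05 (adjusted p = 0.0363). Rnf39 and Otud1 kept their calls without any 1 library. Single libraries ended the calls of Bcl10 (10 of them, at most 0.294), Peli1 (8, 0.200), Clec2e (7, 0.199), Nppb (7, 0.0962), Fzd5 (3, 0.109) and Map2k3os (2, 0.111). The library behind the highest p was the shWDR5 PBS library for Bcl10, Clec2e, Nppb and Fzd5 and the shKAT2B PBS library for Peli1 and Map2k3os.

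Several lists, some of them related to fasting, had no call in the shared fit. Over all genes tested, 0.923% were called in that fit and 3.35% with the split as a term. At the first share a list of 11 to 31 genes would mostly hold no call, so these 0 counts are no result about the lists. None of 28 genes of lipogenesis was called, between Insig1 at -0.28 (adjusted p = 0.961) and Lpin1 at 0.28 (0.312). None of 26 genes of fatty acid oxidation and ketogenesis was called, between Bdh1 at -0.33 (0.961) and Cpt1a, the carnitine palmitoyltransferase that admits fatty acids to mitochondria, at 0.46 (0.0874). Cpt1a was higher with the split as a term, at 0.39 ± 0.05 (adjusted p = 0.000382). Among 31 genes of the ATF4 and endoplasmic reticulum stress response, values ran from Chac1 at -0.30 (0.832) to Atf3 at 0.76 (0.511). Cholesterol synthesis (18 genes, Msmo1 at -0.37 to Ebp at 0.02), the cell cycle (29 genes, Cdkn2b at -0.49 to Plk3 at 0.40) and bile acid, steroid and drug metabolism (11 genes, Cyp1a2 at -0.09 to Cyp26a1 at 0.39) also had 0 calls. With the split as a term cholesterol synthesis still had 0, and the other lists here had 2 (lipogenesis, bile acid), 2 (fatty acid oxidation, 1 in each direction) or 3 (stress, cell cycle). Of 24 liver transcription factors 1 was called, Foxa3, which was at 8.62 to 9.46 (median 8.88) in the glucagon libraries and 8.85, 8.87, 8.40 and 8.47 in the PBS libraries, an effect of 0.41 ± 0.07 (adjusted p = 0.0284). That call was lost without any 1 of 9 libraries, at most to 0.175 without the shKAT2B PBS library, while 6 factors were higher with the split as a term, Hnf4a and Onecut1 among them.

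**Figure D3:**
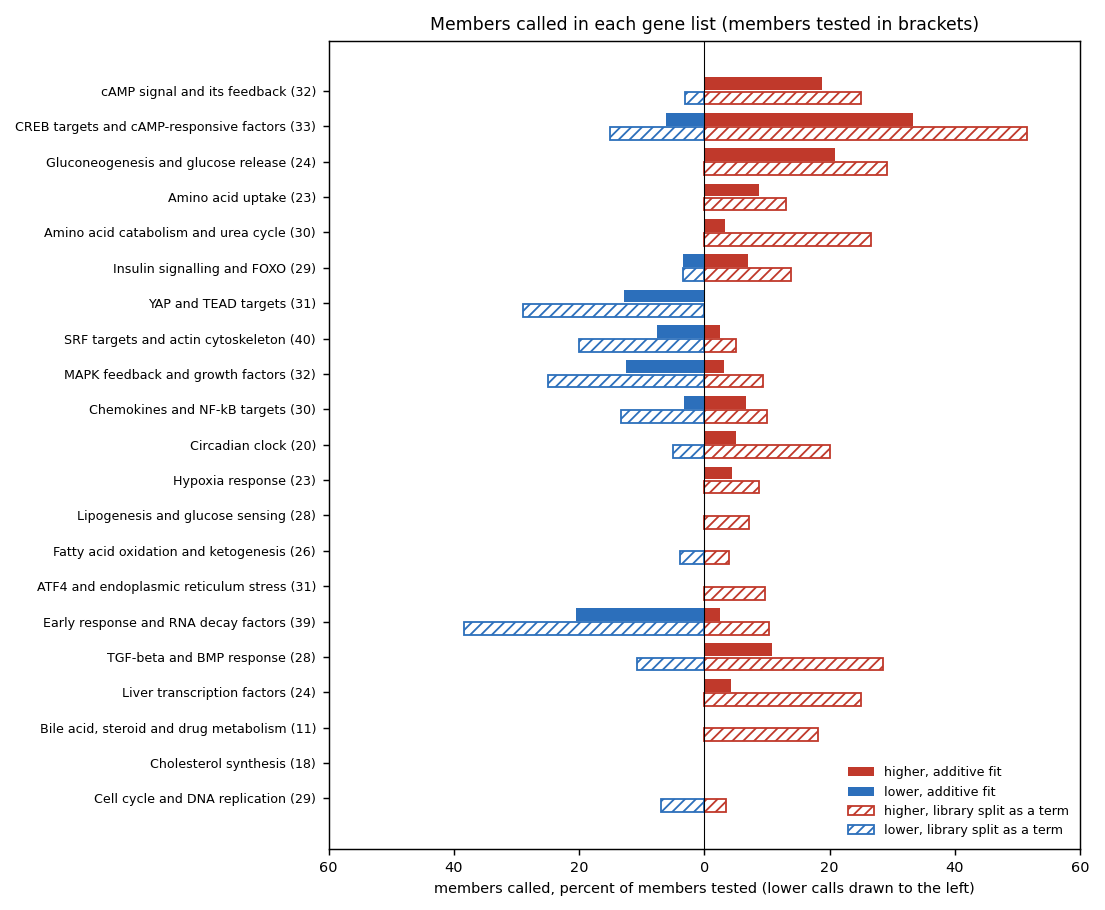
Percent of each list's tested members that were called higher (red, to the right) or lower (blue, drawn to the left), in the shared fit (filled) and with the library split as a term (hatched), with the number tested in brackets. CREB targets reach furthest to the right, at 11 of 33 and 17 of 33, and early response genes furthest to the left, at 8 of 39 and 15 of 39. Over all genes tested 0.679% were higher and 0.244% lower in the shared fit, and 1.92% and 1.43% with the split as a term. The lists were chosen with earlier results of these data known, so their order is no independent evidence.

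The response had the same direction in the 3 arms for every called gene. Over the 78 higher genes the median log2 fold change was 0.74 in shWDR5, 0.68 in shKAT2B and 0.76 in shNS, and the largest of the 3 effects was found in shWDR5 for 14, in shKAT2B for 16 and in shNS for 48. Over the 28 lower genes the medians were -0.48, -0.50 and -0.73 in the same order of arms, and the largest fall was in shWDR5 for 2, in shKAT2B for 9 and in shNS for 17. The genes had been called on these same values, so these medians describe them without a test. In shNS the split falls evenly over glucagon and PBS. In shWDR5 and shKAT2B the lone PBS library lies on the larger side and library A of glucagon on the smaller side. The sizes by arm are from the model without the split, and its part in them was not tested. The test of a difference between arms called 0 genes (0%) over all genes, with 20 at an unadjusted p below 0.05 (0.174%), 10 of them among the 106. Where no gene differs, a share of about 0.05 is met by chance, so this test gave fewer low p-values than chance alone. Its 0 calls do not show that the arms responded alike. With the split as a term 2 genes were called (0.0174%), 272 reached an unadjusted p below 0.05 (2.37%), and 30 of these were among the 106.

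Those 2 genes were Efna1 (adjusted p = 0.0275) and Nr4a1 (adjusted p = 0.0415). In that model the glucagon effect on Efna1 was 0.99 in shWDR5 and 0.50 in shKAT2B, against 1.66 in shNS. On Nr4a1 it was 3.44 in shWDR5 and 2.58 in shKAT2B, against 3.62 in shNS. The PBS levels of Nr4a1 spanned 0.21 over the arms, and its glucagon levels in shKAT2B were below those of the other arms by at least 0.67. Without the split as a term neither gene passed the test (adjusted p = 1 for both, unadjusted p = 0.000414 for Efna1 and 0.00092 for Nr4a1), while the effects were close to these: 1.02 in shWDR5 and 0.53 in shKAT2B, against 1.66 in shNS, for Efna1 and 3.47 in shWDR5 and 2.61 in shKAT2B, against 3.62 in shNS, for Nr4a1. The calls rest on a term read from the data.

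Within an arm and within a side of the split, 4 pairs of 1 glucagon and 1 PBS library could be formed, 2 in shNS and 1 in each other arm. All 106 called genes had the sign of the shared effect in all 4 pairs, which their lack of overlap within every arm fixes in advance. For Nr4a1 the 4 differences ran from 2.59 to 3.66, for Sik1 from 1.82 to 2.28, for Egr1 from -0.69 to -0.94 and for Edn1 from -1.05 to -1.78. Pck1, whose shared call was fragile, ran from 1.46 to 2.15. The pairs share libraries with the fit and are no separate test.

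**Figure D4:**
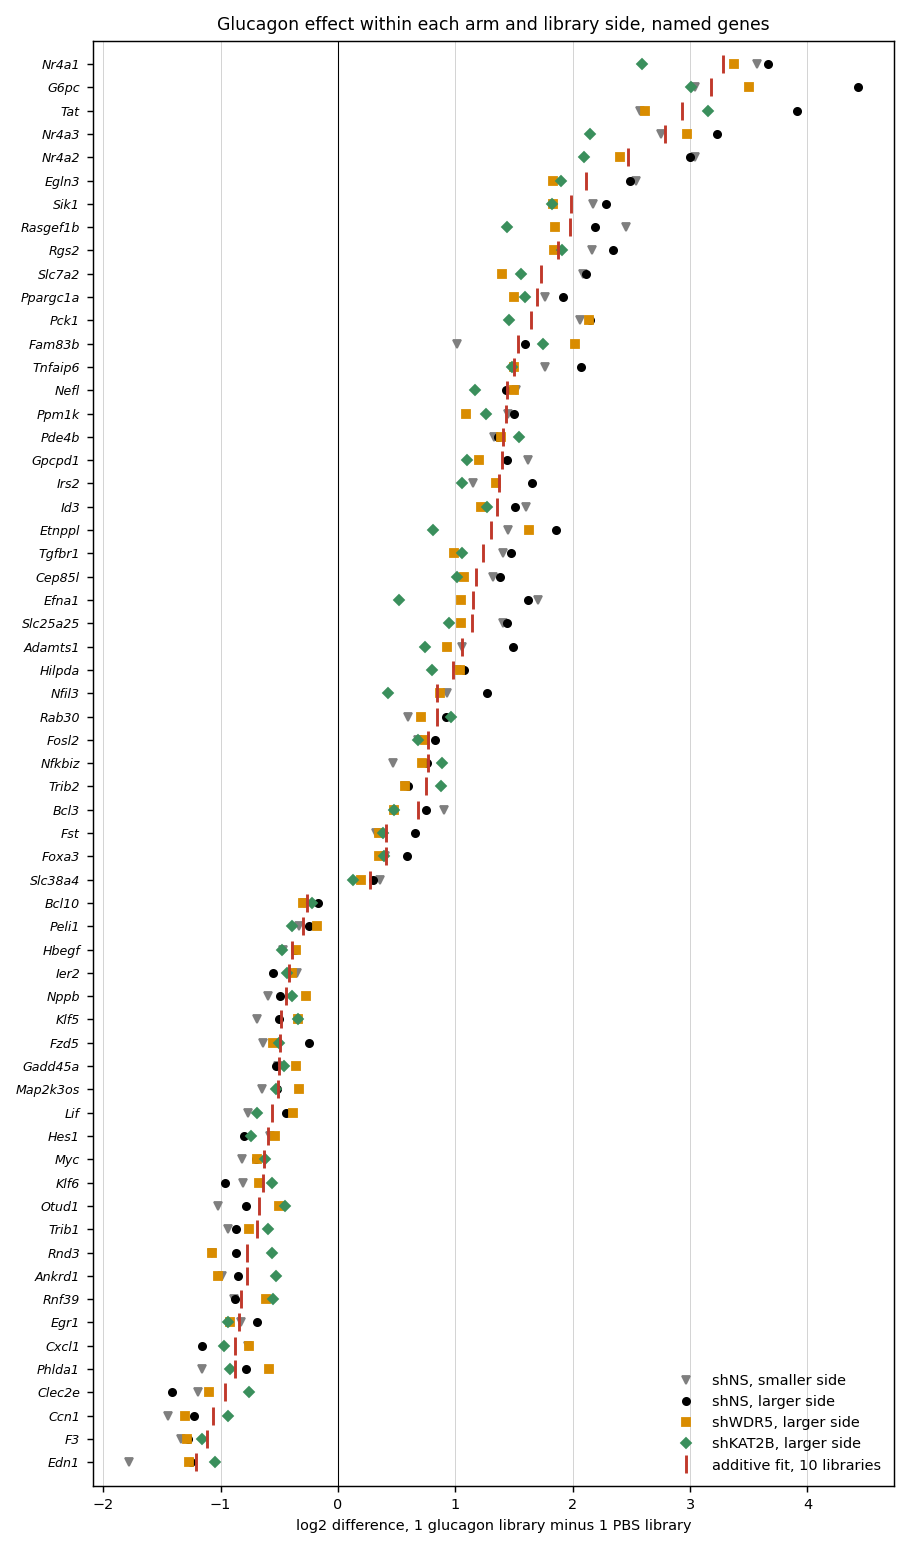
Log2 difference of 1 glucagon minus 1 PBS library within the same arm and the same side of the library split (4 symbols for each gene), with the shared effect of all 10 libraries as a red bar, for the 61 named genes in order of that effect. No symbol crosses 0 to the other side of its bar, which the lack of overlap within every arm fixes in advance. The widest range among higher genes is that of G6pc, from 3.01 to 4.43.

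The number of calls depended on single libraries. Of the 106, 42 genes (36 higher and 6 lower) kept the call without each library in turn. None of the 106 changed sign, which their lack of overlap within every arm fixes in advance. The count fell to 50 without the shWDR5 PBS library and to 54 without the shKAT2B PBS library, each the lone PBS library of its arm, to 60 without library A of shNS glucagon and to 61 without library B of shNS PBS. The 6 lower genes were Myc, Otud1, Rnf39, Egr1, F3 and Edn1.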

How the data were processed

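The authors' deposited table gives array intensity on a linear scale for 26913 features in 10 libraries, 6 glucagon and 4 PBS, from 4.469 to 22694, with library medians of 282.1 to 298.2. Per the submitters' processing notes the tool was Affymetrix Expression Console 1.1.1. How it normalized the arrays is not stated in any label or header, so intensities were used as deposited. An array has no read depth, and the number of libraries limits the precision.

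Features with 1 symbol in the platform annotation (17873, of which 17815 matched a RefSeq gene ID) covered 16401 genes. The 1128 features with several symbols and the 7912 with none were left out. Each gene was represented by its feature of highest mean, log2 was taken with no pseudocount, and the lowest 30% of genes by mean were left out, leaving 11481. Libraries were grouped by the treatment and hairpin in their labels. The model (limma 3.58.1 in R 4.3.3, trended eBayes, two-sided) had arm and glucagon terms and 6 residual degrees of freedom. Its errors pool all groups, so the PBS groups with 1 library are assumed to vary like the others. The difference between arms was an F test of the 2 interaction terms of a model of the 6 groups, with 4 residual degrees of freedom. The scripts were tested on simulated data with noise drawn independently for each gene and library. The library split was not simulated, and for the difference between arms the noise was reduced. The simulation therefore checks the code and does not show how the fits behave with such a split. Motif counts and figures used Python 3.11.15, pandas 2.3.3 and matplotlib 3.10.9.

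Named genes are the markers Nr4a1, G6pc, Tat, Ppargc1a and Sik1, the 15 highest and 15 lowest calls without overlap in any arm, the 10 highest and lowest of these outside the lists, and up to 4 calls in each direction from each list. Got1, Pde4d, Pde10a, Crem, Gde1, Slc25a51, Odc1, Smox and Ccn2 fall outside this rule and were chosen after their values were seen. The 21 gene lists, 5 marker lists and the genes described were chosen with earlier results of these data known. The list counts are shown without a set test, since lists share genes.

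Letters do not mark a stated shared batch or animal. The A libraries deviated from their group means alike (r = 0.72 to 0.84 across features between groups with both letters), but the lone A libraries of shWDR5 PBS and shKAT2B PBS lay with the B libraries. Replicates correlated at r = 0.978 to 0.984 and shared 340 to 485 identical values of 26913, so none was a copy. Alternatives were other offsets, filters, scalings and feature rules, no trend, array weights, the letter as a block, the library split as a term, its larger side alone, and each library left out.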

Additional observations from a re-analysis of the deposited data

Results flagged for a closer look

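Among the named genes, 122 groups of libraries were looked at for a value far from the rest, and 2 stood out, where chance gives about 1 in 20. Egln3 in library A of shWDR5 glucagon was 10.44, and the nearest of the other 5 glucagon libraries was 10.66, a gap of 0.647 of the whole range. Irs2 in library A of shNS PBS was 8.84, and the nearest of the other 3 PBS libraries was 8.35, a gap of 0.86 of the range. In both cases every glucagon library remained above every PBS library. Both libraries are among the 4 that the split sets apart. Whether that bears on these values was not tested.

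The glucagon effect differed between arms, with the split as a term, for Efna1 (limma F test, adjusted p = 0.02752) and Nr4a1 (adjusted p = 0.0415). Efna1 had 10.95 and 11.02 in shWDR5 and 10.54 and 10.52 in shKAT2B with glucagon, against 11.46 and 11.29 in shNS with glucagon. Its PBS values were 9.97 in shWDR5 and 10.00 in shKAT2B, against 9.76 and 9.67 in shNS. Each of the knockdown arms has 1 PBS library, so its effect rests on that library. Without the split as a term neither gene was called.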

How the results depend on the processing

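Of the 61 genes that the naming rule picked, none reversed its direction under any alternative in which it was tested (46 of them when the lowest 50% of genes were left out). For the left-out libraries this was fixed in advance by their lack of overlap within every arm. The genes named after their values were seen were followed only through the left-out libraries. The shared count of 106 genes (78 higher, 28 lower) moved by over 1.5 times under 4 alternatives of the model. The replicate block, which pairs libraries by letter, called 290 (214 higher, 76 lower). The library split as a term called 385 (221 higher, 164 lower), the larger side of the split alone 308 (192 higher, 116 lower) and array weights 263 (187 higher, 76 lower). Each of these included all 106. The difference between arms, with 0 genes called in the main model, had 899 with the replicate block, 2 with the split as a term and 0 with array weights. Both lone PBS libraries are named A and lie on the larger side of the split, where all B libraries lie. The cause of these shifts was not tested. Leaving out 1 library gave 50 to 101 calls in all, 40 to 71 higher and 10 to 30 lower, and the difference between arms could not be fitted without either lone PBS library, nor on the larger side alone. Other offsets gave 106, no filter 108, leaving out the lowest 50% of genes 76, quantile normalization 108, median-centred libraries 105, the mean of features 107 and no trend 101. Named calls lost there were Pck1 and Foxa3 under both scalings, Slc38a4 under quantile normalization and without the trend, Fst under median centring and without the trend, Bcl10 without the filter and without the trend, and Cxcl1 without the trend. Array signal near background limits low genes. The filter left out genes with a low mean over the libraries, so genes low only with PBS stayed in. G6pc, Nr4a3, Rgs2 and Fam83b were among these, with PBS values in the low part of all features. Their calls were kept under the other offsets. How far background shaped the size of their fold changes was not tested.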
